A study of Mus musculus with 6 samples.

Results

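The genes described here encode titin and 9 proteins that anchor it or signal at its ends. They are Ttn itself, the Z-disc genes Tcap, Actn2, Ldb3, Nebl, Csrp3 and Myoz2, the titin-binding Ankrd1, and the M-band genes Myom1 and Myom2. They were chosen by symbol, with earlier results of these data known. All 10 were found among the 23284 listed genes and among the 10807 genes tested. Whole hearts of C57BL/6 mouse embryos were profiled at E13.5 by sequencing of poly(A) RNA, in 3 Tfam KO and 3 Control libraries of 5 pooled hearts each. KO hearts were Tfamfl/fl and carried Nkx2.5IRES-Cre/+. Control hearts were Tfamfl/+ and carried the same Cre allele, so that 2 Tfam alleles were floxed in KO hearts and 1 in controls. Cre is expressed from the Nkx2-5 locus, a gene of cardiac progenitors, so both groups have 1 altered copy of Nkx2-5 and cells outside that lineage keep Tfam. Tfam encodes a protein that packages mitochondrial DNA and is needed for its transcription.

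The sarcomere is the contractile unit of heart muscle. Titin runs from the Z-disc, where thin filaments of neighbouring units are crosslinked, to the M-band, where thick filaments are held in register, and serves as a molecular spring. Proteins at both ends of titin hold the lattice together, and some of them also bind enzymes or enter the nucleus, which has made the Z-disc known as a site of mechanical signalling in the heart.

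Libraries held 12370092 to 18078620 reads, recovered from the values as described under processing, and the ribosomal RNA precursor Rn45s took 14.95% to 32.5% of them. Values are FPKM, in which reads are divided by the length of the transcript and the size of the library. The libraries differed in overall scale. Dividing each of them by its size factor (a median of ratios over genes, 0.828 to 1.33) moved the log2 fold change of the median tested gene from 0.28 to 0.01. Each gene is therefore given on both scales, and "rose" and "fell" are kept for genes past an adjusted p of 0.05 in limma on both. Tfam stood at 3.97, 4.77 and 6.22 FPKM in KO replicates 1, 2 and 3 and at 4.64, 5.55 and 6.62 FPKM in controls, and did not pass (adjusted p = 0.651, and 0.152 after scaling). It is a value of the whole gene in the whole heart, so it is a weak check of the labels. Replicates are separate pools of hearts. Among markers of heart muscle, Tnnt2 was at 1816 to 2946 FPKM and Actc1 at 3587 to 5050 FPKM in the 6 libraries.

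Of the 10 genes, Ankrd1 and Myom2 rose and Tcap fell in Tfam KO hearts. Ankrd1 was 2.59-fold and Myom2 6.47-fold higher, and Tcap 3.28-fold lower, in mean FPKM as deposited. After scaling the folds were 2.06, 5.47 and 3.97. Csrp3 passed as deposited only, and Ttn was lower with size factors only. The structural genes Actn2, Ldb3, Nebl and Myom1 and the adaptor gene Myoz2 passed on neither scale.

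Counts were read against the share of all tested genes that passed the same rule. Because the 10 genes were chosen with earlier results known, these shares give a scale and no test. As deposited, 3 of the 10 were higher (6.21% of all tested genes were) and 1 was lower (1.16%). Leaving out 1 library moved these shares, to 21.0% higher without KO replicate 2 and 2.17% to 3.66% without any other, and to 0.481% to 1.04% lower. With size factors 2 were higher (2.07%) and 2 lower (2.5%), shares that ran from 1.28% to 2.02% and from 1.09% to 3.13% with 1 library left out and were lowest without Control replicate 3. Past the threshold on both scales, 2 were higher (2.07%) and 1 lower (0.953%). The median log2 fold change of the 10 genes was 0.29 as deposited and -0.03 with size factors, beside 0.28 and 0.01 for all tested genes, and the genes did not shift as a block. Their changes spread from -1.59 to 2.09 as deposited and from -1.89 to 1.83 with size factors. KO and Control libraries did not overlap for 4 genes that were higher (25.6% of tested genes) and 1 that was lower (2.34%) as deposited. With size factors this held for 2 higher (12.5%) and 3 lower genes (11.6%).

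**Figure D1:**
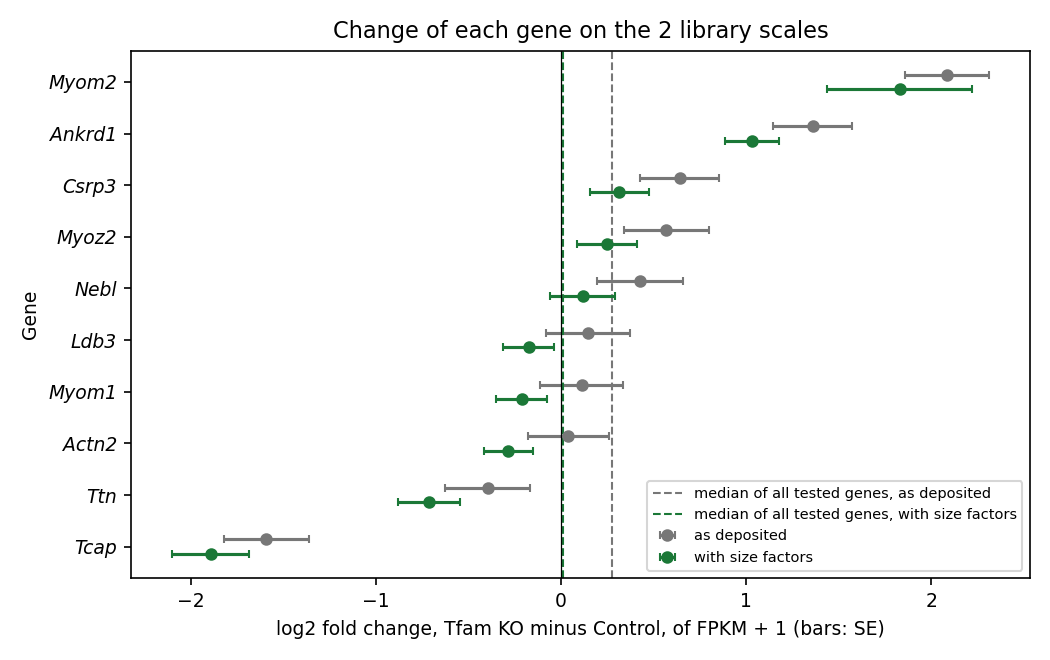
Log2 fold change of FPKM + 1 (x axis, Tfam KO minus Control) for each gene (y axis), as deposited in grey and with size factors in green, with bars for the SE from limma and dashed lines at the median of all tested genes. Tcap lies at -1.59 and -1.89, Ankrd1 at 1.36 and 1.03 and Myom2 at 2.09 and 1.83, while Actn2, Ldb3 and Myom1 lie on either side of 0 depending on the scale.

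FPKM are scaled by length, but only for Ttn and Tcap did the length behind the values equal that of an annotated transcript. The order between genes is therefore approximate. In controls, Ankrd1, Csrp3 and Actn2 had the highest values, with means of 295, 282 and 242 FPKM. Their ranges over the 3 control libraries overlapped from each to the next. Myom1 (95.6 FPKM), Ldb3 (50.8), Myoz2 (41.5), Ttn (38.4), Tcap (30.2), Nebl (16.8) and Myom2 (1.97) followed. Ldb3 overlapped with Myoz2, Myoz2 with Ttn and Ttn with Tcap, whereas Actn2 and Myom1, Myom1 and Ldb3, Tcap and Nebl, and Nebl and Myom2 were apart in all 3 control libraries. In KO hearts Ankrd1 stood apart at the top with 762 FPKM and Tcap came last with 9.21 FPKM, its range overlapping with that of Myom2 (12.7 FPKM). Among all tested genes ranked by mean FPKM, Tcap went from place 898 in controls to place 3991 in KO hearts, Myom2 from place 8818 to 2964, and Ankrd1 from 52 to 23.

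**Figure D2:**
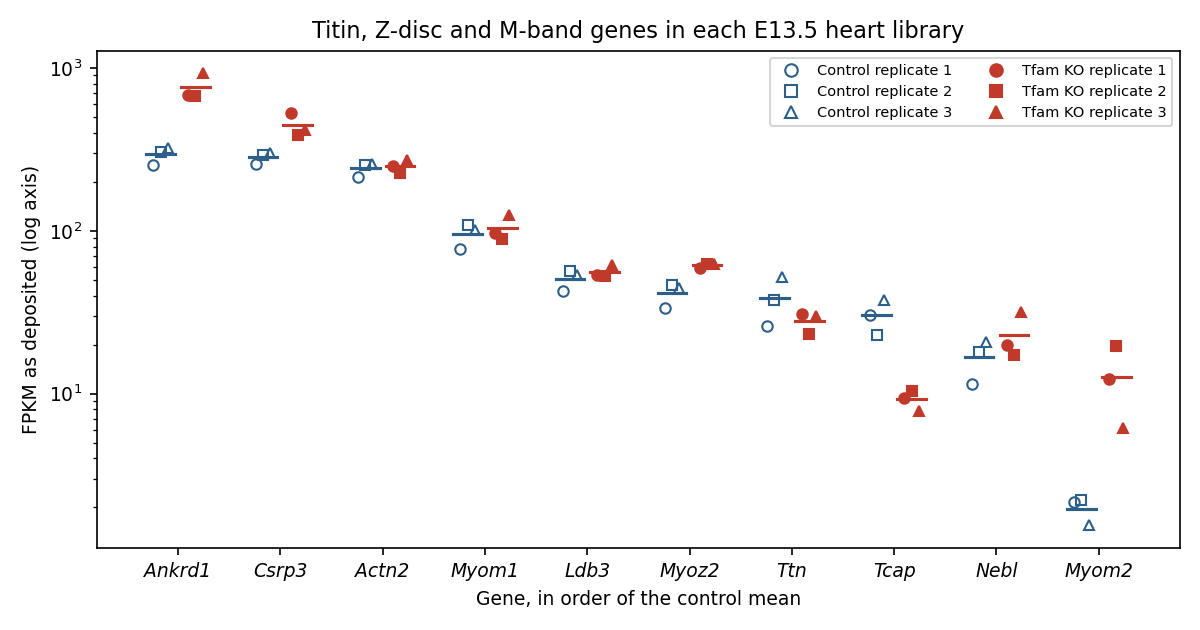
FPKM as deposited (y axis, log scale) of the 10 genes (x axis, in order of the control mean) in each of the 3 Control libraries (open blue) and 3 Tfam KO libraries (filled red), with marker shapes for the replicate and horizontal lines for the group mean. Ankrd1 and Myom2 lie higher and Tcap lower in all KO libraries, and the 3 KO values of Myom2 spread from 6.13 to 19.7 FPKM.

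Titin is the largest of these proteins, and its values rested on the most reads of the 10 genes, 32675 to 94920 per library. The FPKM of Ttn had been scaled by a length of 101674 bases, which equals that of an annotated Ttn transcript. Ttn was at 31.0, 23.3 and 29.9 FPKM in KO replicates 1, 2 and 3, and at 25.9, 37.6 and 51.6 FPKM in Control replicates 1, 2 and 3. The groups overlapped as deposited, because Control replicate 1 lay among the KO libraries, and the log2 fold change of -0.40 did not pass (SE 0.23, adjusted p = 0.245). With size factors the KO values were 26.4, 25.2 and 22.5 FPKM and those of controls 31.3, 43.2 and 51.1 FPKM. On that scale all KO libraries lay below all controls, with a log2 fold change of -0.71 (SE 0.17, adjusted p = 0.0413). This call was lost in 5 of the 6 fits that leave out 1 library, the exception being the fit without Control replicate 1. Their log2 fold changes ran from -0.56 without Control replicate 3 to -0.91 without Control replicate 1. On the same scale the 198 tested genes with a length over 10 kb had a median of 0.02, and the 3304 genes under 2 kb one of -0.02. The exons of Ttn overlap those of an antisense gene in the reference annotation, Gm13938.

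Tcap encodes telethonin, which caps the amino-terminal ends of a pair of titin molecules at the Z-disc. It was at 9.42, 10.4 and 7.83 FPKM in KO replicates 1, 2 and 3 and 30.4, 22.8 and 37.5 FPKM in the 3 controls. All 3 KO values lay well below the lowest control. Tcap fell, with a log2 fold change of -1.59 (SE 0.23, adjusted p = 7.56e-10) on deposited values and -1.89 (SE 0.21, adjusted p = 0.000563) after size-factor scaling. It is a short transcript, scaled by 948 bases, and the values stood for 112, 136 and 124 reads in KO libraries and 402, 267 and 642 in controls. The fall passed the threshold in each of the other fits run, on either scale.

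The fall of Tcap went together with lower levels of some skeletal muscle genes, a tissue in which Tcap is also abundant. The 11 markers of skeletal muscle summed to 4.97 to 9.74 FPKM in KO libraries and 13.2 to 15.9 FPKM in controls, so the groups did not overlap. Of the 3 markers tested, the fast troponin I gene Tnni2 and the fast light chain gene Mylpf fell (adjusted p = 0.0028 and 0.0135 with size factors). Tnnt3 went the other way, at 1.92 to 2.55 FPKM in KO libraries and 0.922 to 1.73 FPKM in controls, and did not pass. Tnni2 alone, at 6.46 to 11.4 FPKM, was the largest part of the sum in every control. The lineage-defining genes Myf5 and Myf6 were at 0 in all 6 libraries, Myod1 had 0 to 3 reads, Pax7 0 to 4 and Myog 2 to 10. The 6 smooth muscle markers also summed lower, to 272 to 334 FPKM in KO libraries and 363 to 442 FPKM in controls. Of 4 tested, 0 passed on both scales, and Acta2 (228 to 263 against 306 to 352 FPKM) and Cnn1 passed with size factors only. The 10 cardiomyocyte markers overlapped between groups at 12164 to 15795 and 11184 to 12488 FPKM, and 1 of them, Nppa, rose (2803 to 4294 against 1036 to 1153 FPKM). The median log2 fold change of that list was 0.11 as deposited and -0.22 with size factors. On the scaled values Nkx2-5, also on the list, was lower (adjusted p = 0.0395 in limma). The 8 fibroblast and valve markers summed higher in KO libraries as deposited (421 to 598 against 260 to 405 FPKM) and overlapped with size factors. In a whole heart, fewer cells of a type and less RNA per cell cannot be told apart. The part of these cell types in the fall of Tcap, or in the higher values of other genes, was not tested.

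Actn2, the cardiac alpha-actinin that crosslinks thin filaments in the Z-disc, was at 249, 227 and 272 FPKM in KO libraries and 215, 254 and 258 FPKM in controls. The groups overlapped and the deposited values gave a log2 fold change of 0.04 (SE 0.22, adjusted p = 0.905). With size factors the KO values of 212, 246 and 204 FPKM lay below the controls at 260, 292 and 255 FPKM, and the log2 fold change of -0.29 did not pass (SE 0.13, adjusted p = 0.27). Its direction therefore changed with the scale.

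Ldb3, also called Cypher or ZASP, is a PDZ and LIM domain protein that binds alpha-actinin. It was at 53.6, 52.8 and 62.0 FPKM in KO libraries and 42.7, 56.2 and 53.6 FPKM in controls, with log2 fold changes of 0.15 as deposited and -0.18 with size factors (adjusted p = 0.661 and 0.546). Nebl encodes nebulette, which links alpha-actinin to thin filaments. It was at 19.96, 17.2 and 31.9 FPKM in KO libraries and 11.5, 18.0 and 20.8 FPKM in controls, with log2 fold changes of 0.43 and 0.12 (adjusted p = 0.216 and 0.783). Both genes overlapped between the groups on both scales. KO replicate 3 was the highest library for Nebl on both scales.

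Csrp3 encodes the muscle LIM protein, a Z-disc protein that can also enter the nucleus. It was at 528, 387 and 416 FPKM in KO libraries and 258, 290 and 299 FPKM in controls, so that every KO library was above every control as deposited. The log2 fold change was 0.64 (SE 0.22, adjusted p = 0.0443). With size factors the KO values were 451, 419 and 313 FPKM against 311, 334 and 296 FPKM, KO replicate 3 fell among the controls, and the log2 fold change of 0.31 did not pass (SE 0.16, adjusted p = 0.321). The call as deposited was also lost without KO replicate 1 or without Control replicate 1, 2 or 3 (adjusted p = 0.265, 0.325, 0.151 and 0.12). Csrp3 passed in 4 of the 13 alternatives to the fit on deposited values.

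Myoz2, or calsarcin-1, ties the phosphatase calcineurin to alpha-actinin. It was at 59.4, 62.5 and 62.3 FPKM in KO libraries and 33.6, 46.5 and 44.3 FPKM in controls. The KO libraries were close together and above the controls as deposited, yet the log2 fold change of 0.57 did not pass (SE 0.23, adjusted p = 0.1). After scaling the groups overlapped and it was 0.25 (SE 0.16, adjusted p = 0.452).

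Ankrd1 encodes the cardiac ankyrin repeat protein, which binds titin near the Z-disc, is found in the nucleus as well, and is known to be induced in strained heart muscle. It was at 683, 677 and 927 FPKM in KO libraries and 255, 306 and 323 FPKM in controls. The lowest KO library was above the highest control by a wide margin. Ankrd1 rose by a log2 fold change of 1.36 (SE 0.21, adjusted p = 2.29e-08), or 1.03 after scaling (SE 0.14, adjusted p = 0.00245). The scaled KO values were 582, 734 and 698 FPKM and the controls 308, 353 and 319 FPKM. The rise passed in each of the other fits run, with log2 fold changes of 0.97 to 1.44.

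Myomesins crosslink thick filaments and bind titin at the M-band. Myom1, the gene expressed throughout striated muscle, was at 96.9, 88.4 and 124 FPKM in KO libraries and 77.0, 108 and 102 FPKM in controls. The groups overlapped on both scales. The log2 fold changes were 0.11 on deposited and -0.21 on scaled values (adjusted p = 0.738 and 0.45). In the reference annotation an exon of Myom1 overlaps one of Myl12a on the opposite strand, which reached 68.5 FPKM, and the strand setting of the counting was not given in the sources used here.

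Myom2, which encodes M-protein, had the lowest FPKM of the 10 genes in controls. It was at 12.3, 19.7 and 6.13 FPKM in KO libraries and at 2.14, 2.20 and 1.55 FPKM in controls, from 767, 1346 and 507 reads against 148, 135 and 139. Every KO library was above every control, but KO libraries differed among themselves by 3.21-fold as deposited and 4.62-fold with size factors, the widest spread within a group of the 10 genes. Myom2 rose by a log2 fold change of 2.09 (SE 0.23, adjusted p = 1.36e-17), or 1.83 after scaling (SE 0.39, adjusted p = 0.0255). The call on scaled values was lost without KO replicate 1 or Control replicate 3 (adjusted p = 0.0723 and 0.0902) and with no filter on low genes (adjusted p = 0.12), and the log2 fold change ran from 1.35 without KO replicate 2 to 2.32 without KO replicate 3.

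Ratios between 2 of these genes within a library do not depend on the library scale. With 3 libraries against 3 the smallest p that an exact two-sided permutation test can give is 0.1, so no ratio could pass 0.05, and p-values were adjusted by Benjamini-Hochberg over the 7 ratios computed. Tcap per Ttn was 0.304, 0.446 and 0.262 in KO libraries and 1.18, 0.606 and 0.725 in controls. All KO ratios lay below all controls, by a log2 difference of -1.29, or 2.44-fold in the geometric mean (exact permutation p = 0.1, adjusted 0.14). Ankrd1 per Ttn was 22.04, 29.1 and 31.0 in KO libraries and 9.83, 8.16 and 6.26 in controls, a 3.41-fold difference. Myom2 per Myom1 was 0.127, 0.223 and 0.0492 in KO libraries and 0.0279, 0.0204 and 0.0153 in controls, a 5.44-fold difference that became 8.19-fold without KO replicate 3 and 3.85-fold without KO replicate 2. The M-band pair thus stood in a different proportion in every KO library than in any control.

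Relative to Actn2, Csrp3 and Myoz2 were higher in every KO library than in any control. Part of this lies in Actn2, whose log2 fold change with size factors was -0.29, beside a median of 0.01 for all tested genes. On that scale Csrp3 and Myoz2 themselves overlapped between the groups. How many of all tested genes would stand apart when divided by Actn2 was not computed. Csrp3 per Actn2 was 2.12, 1.71 and 1.53 in KO libraries and 1.20, 1.14 and 1.16 in controls, a 1.52-fold difference. Myoz2 per Actn2 was 0.239, 0.276 and 0.229 against 0.156, 0.183 and 0.172, a 1.45-fold difference. Each of these ratios reached the smallest p possible (exact permutation p = 0.1, adjusted 0.14). Ldb3 per Actn2 overlapped between the groups, at 0.216, 0.233 and 0.228 in KO libraries and 0.199, 0.221 and 0.208 in controls (exact permutation p = 0.2, adjusted 0.233). Nebl per Actn2 also overlapped (exact permutation p = 0.3).

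**Figure D3:**
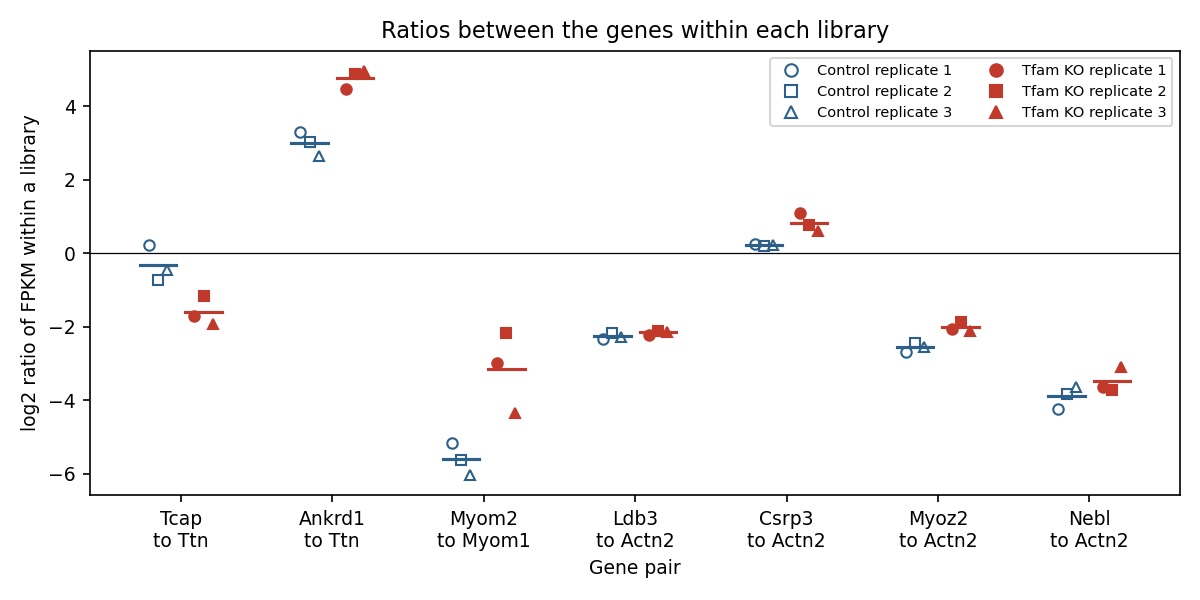
Log2 ratio of the FPKM of 2 genes within each library (y axis) for the 7 gene pairs (x axis), in Control (open blue) and Tfam KO (filled red) libraries, with marker shapes for the replicate and lines for the group mean. The groups are apart for Tcap to Ttn, Ankrd1 to Ttn, Myom2 to Myom1, Csrp3 to Actn2 and Myoz2 to Actn2 and overlap for Ldb3 to Actn2 and Nebl to Actn2.

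Upstream sequences are shown for Ankrd1, which rose, Csrp3, which was higher as deposited only, and Ttn, which was lower with size factors only, so that the windows of genes that differed in direction can be set side by side. They come from RefSeq promoter windows on GRCm38.p6, a later build than the mm9 named by the submitters, and were matched by symbol, which found 8 of the 10 genes, all but Tcap and Myom2. Each line gives the 250 bases before the annotated start, 5′ to 3′ on the gene's strand, and capitals mark motif matches on either strand. The windows lie at chr19:36119845-36120094 (Ankrd1), chr7:48848052-48848301 (Csrp3) and chr2:76982548-76982797 (Ttn), all on the minus strand.
Ankrd1: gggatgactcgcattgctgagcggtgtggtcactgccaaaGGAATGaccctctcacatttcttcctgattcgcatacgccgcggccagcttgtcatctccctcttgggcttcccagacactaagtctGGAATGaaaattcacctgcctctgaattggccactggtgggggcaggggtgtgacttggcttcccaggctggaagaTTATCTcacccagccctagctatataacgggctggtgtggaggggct
Csrp3: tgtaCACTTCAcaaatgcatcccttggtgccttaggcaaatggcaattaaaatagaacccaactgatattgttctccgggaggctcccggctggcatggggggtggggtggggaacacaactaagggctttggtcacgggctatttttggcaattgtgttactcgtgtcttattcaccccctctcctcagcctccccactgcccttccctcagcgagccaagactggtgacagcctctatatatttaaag
Ttn: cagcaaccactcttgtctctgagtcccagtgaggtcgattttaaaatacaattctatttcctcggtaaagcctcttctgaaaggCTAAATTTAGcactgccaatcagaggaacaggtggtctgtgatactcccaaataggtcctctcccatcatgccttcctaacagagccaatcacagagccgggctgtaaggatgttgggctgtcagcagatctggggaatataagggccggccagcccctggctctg

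Both strands were searched for 7 motifs. M-CAT was searched as CATTCC, the site known to be bound by TEAD factors. The GATA motif was searched as AGATAA, which zinc-finger factors of the early heart recognise. The motif of NKX2-5 itself was searched as TNAAGTG, where N stands for any base. The composite element of the stress factor ATF4 was searched as TGATGNAA, likewise with any base at its N. The TATA box was searched as TATAAA, and the MEF2 and CArG motifs by name. Counting back from the start with the last base before it as -1, the Ankrd1 window held M-CAT at -210 to -205 and at -123 to -118 and GATA at -47 to -42. M-CAT was found in 12.6% and GATA in 9.99% of all 32817 windows of this length. The Csrp3 window shown, the more upstream of 2 in the table, held NKX2-5 at -246 to -240 (10.1% of all windows), and the other Csrp3 window held no match. The Ttn window held MEF2 at -166 to -157 (2.92%). The ATF4 composite element, found in 3.45% of windows, the exact string TATAAA (12.4%) and CArG (1.47%) had no match in these 3 windows. Looser TATA-like stretches were not counted. Such stretches stand near the end of the Ankrd1 (tatataa), Csrp3 (tatatat) and Ttn (atataag) windows, so a TATA box is not excluded. No 2 of these 3 windows overlapped or shared a motif. Among the windows not shown, those of Nebl together held M-CAT, GATA and CArG, and that of Myom1 held GATA and CArG. Both Ldb3 windows, which overlap, held CArG, and that of Myoz2 held MEF2. These genes passed on neither scale. Of the genes that rose or fell, Tcap and Myom2 had no window, so whether motifs go with the calls was not tested. NKX2-5 had no match in the windows not shown. A match is a description of letters and shows no binding.

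Of 34 other Z-disc genes tested, 0 passed as deposited in limma (before adjustment, 4 higher and 1 lower had a p under 0.05), with a median log2 fold change of 0.25, beside 0.28 for all tested genes. With size factors 0 were higher, also unadjusted, and the median was -0.06 beside 0.01. Unadjusted, 9 were lower, and the unadjusted share of all tested genes was not computed, here or below. In limma-voom on the recovered reads 0 were higher and 6 lower (294 and 442 of the 10807 tested genes). Past the adjusted threshold, 5 were lower with size factors (2.5% of all tested genes). Those 5 were Myoz1, a skeletal relative of Myoz2 (-0.75), Fhl2, a LIM protein that binds titin (-0.68), Fbxl22 (-0.67), Synpo2 (-0.59) and Palld (-0.49), named after their values were seen. The log2 fold changes of the list ran from -0.57 to 0.49 as deposited, a narrower range than that of the 10 genes described.

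Of 23 tested M-band genes and titin partners, 1 rose and 1 fell. Trim54, a ubiquitin ligase of the sarcomere also called MuRF3, was at 7.18, 4.73 and 5.27 FPKM in KO libraries and 1.64, 1.21 and 2.02 FPKM in controls. Its log2 fold change was 1.35, or 1.11 after scaling (adjusted p = 1.09e-07 and 0.00323). Obsl1, an obscurin-like protein that binds titin and myomesin at the M-band, was at 15.5, 11.9 and 15.2 FPKM against 24.5, 20.6 and 24.8 FPKM. It fell, with log2 fold changes of -0.68 and, after scaling, -0.99 (adjusted p = 0.0451 and 0.00137). In all 1 was higher and 2 lower as deposited (6.21% and 1.16% of all tested genes were). With size factors 1 was higher and 3 lower (2.07% and 2.5%). The medians were 0.17 and -0.15, beside 0.28 and 0.01 for all tested genes. Fhl2, lower with size factors, is counted in this list and among the other Z-disc genes.

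Of 18 filament genes of the cardiac sarcomere, Myl3, a ventricular light chain, fell from 1380 ± 328 to 793 ± 24.4 FPKM (SD, n = 3). Its call was lost on both scales without Control replicate 1 or 3, and with size factors also without KO replicate 3. The list's medians were 0.03 as deposited and -0.30 with size factors. As deposited 1 was higher and 1 lower, and with size factors 0 higher (1 unadjusted, 0 in limma-voom) and 2 lower in limma. Of 27 costamere and intercalated disc genes, Itgb1bp2, or melusin, which binds the tail of beta-1 integrin, fell from 13.9 ± 2.09 to 6.71 ± 3.42 FPKM (SD, n = 3, adjusted p = 0.0482 with size factors), and KO replicate 2 was the highest KO library at 10.6 FPKM. With 1 library left out, it passed in 5 of 6 fits as deposited (not without KO replicate 1) and in 1 of 6 with size factors. In that list 2 were higher and 2 lower as deposited, and 0 higher (2 unadjusted, 0 in limma-voom) and 1 lower with size factors in limma, with medians of 0.25 and -0.05.

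Calcineurin, the phosphatase that Myoz2 holds at the Z-disc, and the NFAT factors it activates changed in 3 of 12 genes. Rcan1, a regulator of calcineurin, rose from 28.1 ± 2.38 to 49.9 ± 7.12 FPKM, and Ppp3cc, a catalytic subunit, from 2.30 ± 0.367 to 4.66 ± 0.602 FPKM (SD, n = 3). Nfatc2, an NFAT transcription factor, fell from 3.44 ± 0.418 to 1.85 ± 0.401 FPKM. The adjusted p-values with size factors were 0.0362, 0.0488 and 0.00238. The list's counts were 2 higher and 1 lower on both scales, beside 2.07% and 0.953% of all tested genes, and its medians 0.40 and 0.08. In limma-voom 1 was higher and 1 lower, and Ppp3cc did not pass (adjusted p = 0.0666). With size factors and 1 library left out, Rcan1 and Ppp3cc each passed in 1 of 6 fits and Nfatc2 in 6 of 6. As deposited Rcan1 passed in 2, Ppp3cc in 4 and Nfatc2 in 1 of those 6 fits.

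Of 25 transcription regulators of sarcomere genes, Hand1 fell, from 11.0, 11.1 and 15.5 FPKM in controls to 7.56, 5.42 and 8.07 FPKM in KO libraries (adjusted p = 0.0204, and 0.000635 after scaling). It was the 1 gene of the list past the threshold as deposited, and with size factors Nkx2-5 was lower as well (adjusted p = 0.0395). In limma 0 genes of the list were higher on either scale (3 unadjusted as deposited, 0 with size factors, and 0 in limma-voom). Lower were 2 unadjusted as deposited, 7 unadjusted with size factors and 5 in limma-voom. Of all 10807 tested genes, 294 were higher and 442 lower in limma-voom. The unadjusted counts cannot be set against a general rate, because the unadjusted share of all tested genes was not computed. The list's medians were 0.15 and -0.12. Over the 6 lists together, 129 tested genes other than the 10 described, 3 were higher and 5 lower on both scales, beside 2.07% and 0.953% of all tested genes. Of these 8, Trim54 alone passed in every alternative on both scales. Obsl1, Nfatc2 and Hand1 passed in all 9 alternatives with size factors, and as deposited in 8, 7 and 8 of 13. Without a filter on low genes, the other 7 did not pass as deposited.

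**Figure D4:**
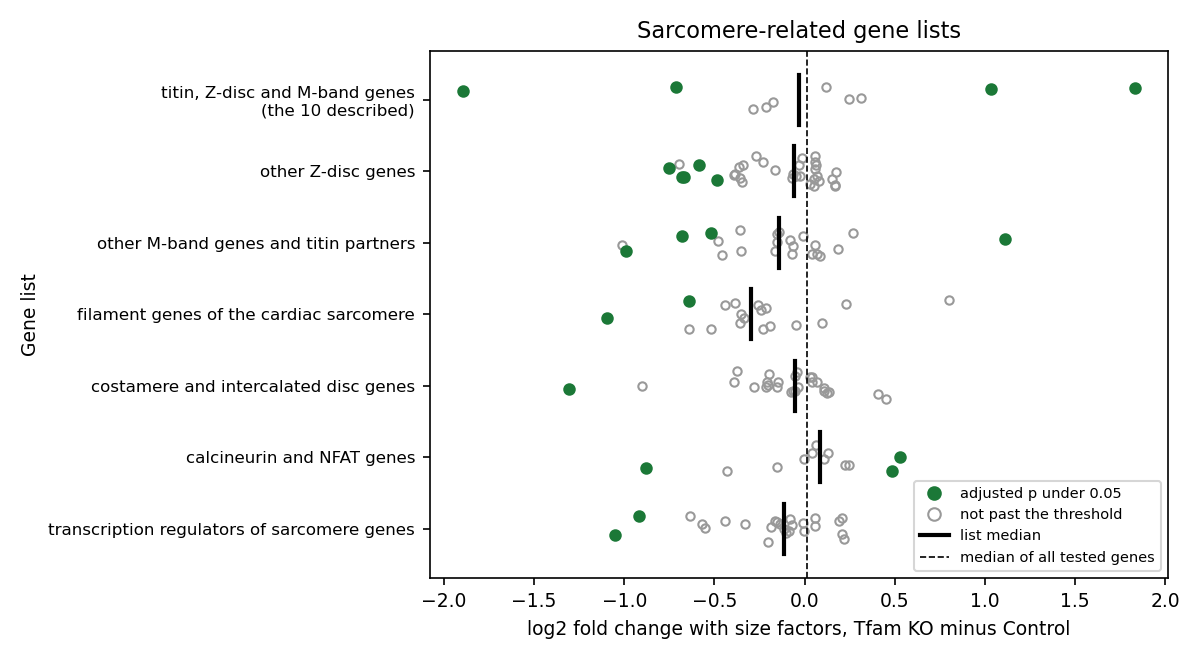
Log2 fold change with size factors (x axis, Tfam KO minus Control) of each tested gene in the 10 described and in 6 related lists (y axis), filled where the adjusted p from limma was under 0.05, with black bars for list medians and a dashed line for the median of all tested genes. The 10 genes described reach from -1.89 to 1.83, and in the other lists the points run from -1.31 to 1.11.

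The genes with the most similar profile to those that rose or fell were sought by the mean absolute difference in centred log2 values with size factors over the 6 libraries. For Ankrd1 they were Atf6, a transcription factor of the unfolded protein response (difference 0.049), the initiation factor gene Eif3c (0.0609) and Ghitm, a protein of the inner mitochondrial membrane (0.0784). For Tcap they were 2810428I15Rik (0.207), the histone gene Hist1h2ak (0.227), whose reads may be shared with near-identical copies, and Fam176b (0.227). For Myom2 they were Avil (0.302), the cell cycle inhibitor Cdkn1a (0.309) and Mir3097 (0.341), which was above 0 in KO replicates 1 and 2 only. The closest match was nearer for Ankrd1 than for Tcap or Myom2, but this measure also takes in each gene's own spread between replicates. Among scaled KO libraries that spread was 1.26-fold for Ankrd1, 1.91-fold for Tcap and 4.62-fold for Myom2. The order of the 3 genes therefore says little about how alike the profiles are.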

How the data were processed

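Poly(A) RNA of 6 libraries of pooled embryonic hearts was measured. The deposited values are log2(FPKM + 1) for 23284 gene symbols, the FPKM unit being given by the file names and the log base worked out from the values. CASAVA 1.8.2, TopHat2 2.0.7, HTSeq 0.5.3 and the build mm9 are named, with no role or order, per the submitters' processing notes. Not given in the sources used here are the strand setting, the annotation and the FPKM calculation.

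Whole reads were recovered from the FPKM steps for all 17876 genes above 0 (whole to within 1e-05 of a read, slightly wider for high counts), with library totals taken from 599 genes whose transcripts share 1 length in GENCODE vM21. A gene's reads could still be off by 1 whole-number factor common to its libraries. The recovery and the fits were also tested on simulated data.

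Differences were tested with limma 3.58.1 (R 4.3.3), group as the only term and a variance trend, on log2(FPKM + 1) for 10807 genes averaging 1 FPKM or more. Tests were two-sided, with Benjamini-Hochberg adjustment over all tested genes and a threshold of 0.05. The same fit was run after dividing each library by its size factor. The median residual SD over genes was 0.246 as deposited and 0.171 with size factors. Fold changes on the log2(FPKM + 1) scale understate the change of low genes. Nothing in the labels names a sequencing batch.

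Named genes were the 10 described, list genes past the threshold on both scales (at most 6 per list), and the 3 nearest profiles to those that rose or fell. The 10 genes and the lists were chosen with earlier results of these data known. Alternatives were another library scaling, a pseudocount of 0.1 FPKM, no filter, limma-voom on recovered reads, a replicate block, and leaving out each library.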

Additional observations from a re-analysis of the deposited data

How the results depend on the processing

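Tcap, Ankrd1 and Myom2 kept direction and call in all 13 alternatives to the fit on deposited values. On size-factor values Tcap and Ankrd1 did so in all 9, and Myom2 in 6. Of the 10 genes, the 1 lower as deposited became 2 with size factors, limma-voom or the replicate block with size factors. With size factors and no filter on low genes (chosen after seeing the data), 1 was higher and 1 lower. Leaving out 1 library with size factors gave 1 to 2 higher and 1 to 2 lower.

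The log2 fold changes of Actn2, Ldb3 and Myom1 turned from 0.04, 0.15 and 0.11 to -0.29, -0.18 and -0.21 with size factors, -0.24, -0.13 and -0.17 with an equal FPKM sum without Rn45s, -0.29, -0.18 and -0.22 in limma-voom, and -0.29, -0.18 and -0.21 in the replicate block with size factors. Leaving out 1 library, Actn2 ran from -0.044 to 0.10 and Myom1 from -0.036 to 0.21 as deposited, and Nebl from -0.070 to 0.22 with size factors. None of these passed the threshold.

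Over all tested genes, 671 higher and 125 lower as deposited (84.3% higher) became 224 and 270 with size factors (45.3% higher), 258 and 253 with an equal FPKM sum, 145 and 22 with no filter, and 294 and 442 in limma-voom. Leaving out 1 library gave 234 to 2273 higher (the highest without KO replicate 2) and 52 to 112 lower as deposited, and 138 to 218 higher and 118 to 338 lower with size factors. With size factors and no filter 143 were lower. In the 6 lists, 6 higher and 7 lower as deposited became 3 and 13 with size factors, 3 and 12 with an equal sum, 1 and 0 with no filter (limma, 7 lower with the filter), and 2 and 21 in limma-voom. Leaving out 1 library gave 2 to 16 and 1 to 7 as deposited, and 1 to 2 and 4 to 13 with size factors, where no filter gave 8 lower. The causes were not tested.

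The labels tie replicate numbers to no shared litter or day. Deviations of same-numbered libraries correlated at 0.36, 0.05 and 0.17 as deposited, with 0.36, 0.07 and 0.16 with size factors. KO replicate 3 correlated better with another number on both scales and KO replicate 2 as deposited only, so the numbers were not taken as pairs. The replicate block gave 2083 higher and 241 lower genes as deposited (15 higher in the lists) and 287 and 394 with size factors (17 lower in the lists). In it Myoz2 passed as deposited (adjusted p = 0.0177).

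Tcap rested on 112 to 642 reads per library, the fewest with Myom2, and 3 libraries a group limit every test.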

Other observations

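Marker lists of other heart cell types gave these summed levels in KO and Control libraries. The 8 endothelial and endocardial markers summed to 133 to 180 and 119 to 143 FPKM, the 7 epicardial ones to 35.9 to 58.4 and 31.6 to 42.5 FPKM, and the 8 macrophage ones to 10.6 to 18.3 and 8.35 to 11.2 FPKM. The 8 erythroid markers varied most, from 3090 to 13530 FPKM in KO libraries and 5412 to 10545 FPKM in controls, with Hba-a1 at 0 in all 6 libraries. None of the genes in these 4 lists rose or fell on both scales in limma. As deposited, 1 endothelial and 1 macrophage marker were higher.

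Mybphl, a myosin-binding protein of the sarcomere named after its values were seen, had log2 fold changes of 1.04 as deposited and 0.80 after scaling (adjusted p = 0.000129 and 0.0708). Myh3, the embryonic skeletal myosin, was at 2.01 FPKM in Control replicate 1 and at 0.0266 to 0.231 FPKM in the other 5 libraries.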
